A study of Saccharomyces cerevisiae with 164 samples.

Results

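A set of 10 yeast genes that write or erase methyl groups on histone H3 was followed across all libraries of the series: SET1 (YHR119W), BRE2 (YLR015W), SWD1 (YAR003W), SPP1 (YPL138C), SDC1 (YDR469W), SET2 (YJL168C), DOT1 (YDR440W), JHD2 (YJR119C), JHD1 (YER051W) and RPH1 (YER169W). They were chosen by gene identifier as the H3 methyltransferases, 4 partners of Set1 and 3 demethylases, and all 10 had a row among the 5013 features of the 3′-end assay and among the 6692 features of the full-length assay. The cells, Saccharomyces cerevisiae in mid-log growth in YEPD, gave 98 libraries by strand-specific full-length sequencing of poly(A)+ RNA and 66 by 3′-end sequencing, 164 in all. The design covers 21 H3 mutants.

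Every strain was MATa, carried leu2, ura3 and trp1 marker alleles and his3+, and lacked both chromosomal H3-H4 gene pairs. H3 came from a pair of centromeric plasmids. The TRP1 plasmid held H3X, an hht2 allele with L127A and L131V, and the LEU2 plasmid held H3Y, an hht2 allele with L110I, A111W and L131I, a pair built so that X prefers to join Y. In symmetric strains the tested mutation was in both alleles, in asymmetric strains it was in H3X or in H3Y alone, and in pseudo-wild-type strains it was in neither. All groups share the chromosomal deletions and the interface substitutions, so the pseudo-wild-type is not an ordinary wild type. The H4 gene on the LEU2 plasmid is HHF1 in some labels and HHF2 in others. Symmetric strains were measured for 13 mutants, and 8 mutants (K79A, K4R, K36R, T45A, delta4-20, K4Q, K56Q and K4A) only in asymmetric form. The full-length groups held 1 or 2 libraries, with 5 of pseudo-wild-type. The 3′-end strains of R2K, K36Q and K37Q in batch 10 and of K14R, K18R and K56R in batch 11 held 3 libraries each, with 6 of pseudo-wild-type per batch. The labels do not say that replicates are separate cultures, so p-values measure the spread between these samples, which may be technical.

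Methylation of H3 is written by 3 enzymes in this yeast. Set1 methylates lysine 4 within COMPASS, a complex in which Swd1 is part of the catalytic core, Bre2 and Sdc1 support higher methylation states and Spp1 is a PHD-finger subunit. Set2 travels with elongating RNA polymerase II and methylates lysine 36, and Dot1 methylates lysine 79 in the globular core after ubiquitination of H2B. Jhd2 removes methyl groups from lysine 4, while Jhd1 and Rph1 act on lysine 36, and Rph1 is also a DNA-binding repressor. The mutants include replacements of lysines 4, 36 and 79 themselves.

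The substrate residues are marked on HHT2 (YNL031C), the gene whose alleles the plasmids carry, to show which mutants replace a substrate lysine. Asymmetric strains keep that lysine in the other H3 allele. Of the mutants at lysines 4, 36 and 79, only K36Q had a symmetric strain. The sequences are the unmutated R64 reference, minus strand, written 5′ to 3′, with the codons of lysines 4 and 36 in capitals in residues 1 to 39 (chrXIV:575931-576047) and the codon of lysine 79 in capitals in residues 72 to 86 (chrXIV:575790-575834). Residues here and in the tested mutations are counted without the first methionine. The interface substitutions keep the numbering of the labels, which was not checked against this count.
HHT2 residues 1 to 39: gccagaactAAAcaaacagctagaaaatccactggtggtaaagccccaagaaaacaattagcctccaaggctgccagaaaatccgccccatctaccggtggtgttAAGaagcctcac
HHT2 residues 72 to 86: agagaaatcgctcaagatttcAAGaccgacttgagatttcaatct

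The libraries held 750551 to 5156160 counts in the 3′-end assay and 542727 to 21573351 in the full-length assay. Levels are in CPM, counts scaled to library size, with TMM factors. The mating-type check was mixed: the MATa transcripts MFA1, MFA2, STE2, BAR1, AGA2 and STE6 were present in every library. The alpha-factor gene MF(ALPHA)1 had medians of 1.55 CPM (3′-end) and 2.98 CPM (full-length), but STE3, the other alpha-specific marker, had medians of 41.8 and 18.7 CPM and was at 0 in no library. The full-length pseudo-wild-type replicates 1 to 3 were nearly alike (chi-square per degree of freedom of 1.15 to 2.76 across genes, against 8.73 for replicates 4 and 5) and are averaged as 1 sample in means, giving n = 3.

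All 10 genes were expressed at low to middle levels. In the full-length pseudo-wild-type libraries, SDC1 had the highest level per length, 59.4 ± 19.05 CPM per kilobase (SD, n = 3), higher than 56.5% of 5924 coding genes with a count. SWD1 followed with 51.1 ± 4.26, RPH1 with 44.7 ± 9.35, BRE2 with 42.8 ± 8.96, SET1 with 39.6 ± 9.44 and SPP1 with 38.5 ± 5.00 CPM per kilobase. SET2 had 34.5 ± 12.8, JHD1 29.7 ± 8.62, DOT1 26.5 ± 3.76 and JHD2 21.2 ± 3.20 CPM per kilobase. Each step in that order was smaller than the larger SD of its 2 neighbours, except that from DOT1 to JHD2. JHD2, the lysine 4 demethylase, was the lowest and lay above only 19.2% of coding genes.

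**Figure D1:**
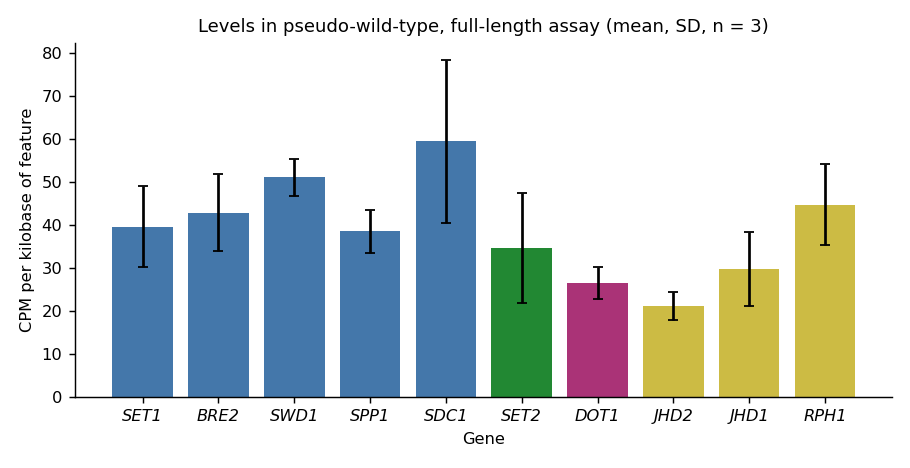
Levels of the 10 genes in full-length pseudo-wild-type libraries, in CPM per kilobase of feature, with bars at the mean and error bars of 1 SD (n = 3). COMPASS genes are blue, SET2 green, DOT1 purple and the demethylases yellow, and the means run from 21.2 for JHD2 to 59.4 for SDC1.

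Across the 56 full-length strains, SDC1 and SET2 had the widest ranges of strain means, which were not adjusted for batch. The lowest SDC1 mean, of H3Y-only K56Q, and the highest SET2 mean, of H3Y-only K4R, are each a single library. The highest strain mean was 4.15 times the lowest for SDC1 and 3.99 times for SET2, against 2.86 for DOT1 and 1.65 for SPP1. In the 3′-end assay, SET2 had the widest range, 2.49-fold over 20 strain means by batch. Its ends were pseudo-wild-type of batch 11 and H3X-only K36Q of batch 10, so that range spans the batches. JHD2 followed with 2.41-fold in that assay. JHD2 was thinly counted there, with 1 to 61 reads per library, and its 3′-end feature (minus strand, chrX:644453-646821) stops inside the coding region, which ends at 644304, so reads at its last bases may be missed. Its 3′-end range and values carry that uncertainty.

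None of the lysine 4 genes passed the test where lysine 4 was replaced or deleted in H3X or H3Y alone. Hardly any gene of the genome did: 0% of all 6376 genes passed in K4R and 0.282% in delta4-20. SET1 had 159 and 164 CPM in the asymmetric K4R libraries, against 95.0 to 178 CPM in the 5 pseudo-wild-type libraries. The log2 fold change was 0.02 ± 0.26 (SE) with batch as a term. Both K4R libraries are in batch 6, which has no pseudo-wild-type library. The fit links them to pseudo-wild-type only through mutant strains shared between batches. In delta4-20, an H3 tail deletion that takes lysine 4 with it, SET1 had 118 and 182 CPM and a log2 fold change of -0.13 ± 0.25. These libraries sit within the pseudo-wild-type range or just past its top.

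In batch 9, which holds no pseudo-wild-type library and shares no strain with another batch, the K4 mutants could be set only against K56Q. SET1 had 179 and 188 CPM in K4A libraries, and averaged 184 CPM, against a mean of 154 CPM in K56Q libraries (log2 0.26 ± 0.24). In K4Q libraries it averaged 157 CPM, against the same 154 CPM in K56Q (log2 0.03 ± 0.24). None of the 20 tests of the 10 genes in batch 9 passed in edgeR's quasi-likelihood test or in DESeq2, with 0 at an unadjusted p under 0.05, beside 0.0157% of all genes for K4A and 0% for K4Q.

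The other COMPASS genes and JHD2 did not pass in these strains either, beside the same shares of all genes. In K4R the log2 fold changes of the COMPASS genes ran from -0.21 for SWD1 to 0.77 for SDC1, the subunit with the smallest count, and the SE of the SDC1 value was 0.49. SPP1 had 0.50 ± 0.23 in delta4-20 (adjusted p = 0.46, edgeR quasi-likelihood). JHD2 had -0.08 ± 0.29 in K4R and 0.09 ± 0.30 in delta4-20.

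DOT1 did not pass the test where its lysine 79 was replaced in H3X or H3Y alone, in a comparison where 0% of all genes passed. The 4 K79A libraries, all asymmetric, had 32.1 to 46.3 CPM, against 38.8 to 53.2 CPM in the 5 pseudo-wild-type libraries. The log2 fold change was -0.01 ± 0.23 (adjusted p = 1.00 in edgeR's quasi-likelihood test). The groups overlap, and changes of the size of that SE or a few times it, in either direction, may have gone uncalled.

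For lysine 36, SET2 was lower in the full-length symmetric K36Q strain, and its 2 libraries were far apart. SET2 had 49.4 and 19.05 CPM in symmetric K36Q, against 98.7, 94.6, 103, 85.0 and 44.6 CPM in pseudo-wild-type replicates 1 to 5. The lower K36Q library lies under every pseudo-wild-type library and the upper one over the lowest, so the groups overlap. The log2 fold change was -1.53 ± 0.45 (adjusted p = 0.0335, edgeR quasi-likelihood over 6376 genes). The lowest pseudo-wild-type value, of replicate 5, rests on 23 reads in the shallowest library of the assay. Within a batch only batch 3 holds both, with 49.4 CPM in symmetric K36Q replicate 1 and 94.6 CPM in pseudo-wild-type replicate 2, and the low K36Q library is from batch 7, which has no pseudo-wild-type library.

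DOT1 also fell in that strain, with 36.8 and 19.6 CPM in symmetric K36Q, against 38.8 to 53.2 CPM in pseudo-wild-type. The groups do not overlap, and the log2 fold change was -0.85 ± 0.26 (adjusted p = 0.0420, edgeR quasi-likelihood). Thus 2 of the 10 genes were lower in symmetric K36Q, beside 2.98% of all genes called lower there. Lower RNA per cell and fewer cells with the RNA cannot be told apart in such bulk samples. Both calls turn on single libraries: without K36Q replicate 1 or 2, or without pseudo-wild-type replicate 1 or 4, neither passed, and over the 5 libraries left out in turn the SET2 value ran from -1.90 to -1.19 and the DOT1 value from -1.12 to -0.59. Without the batch term neither passed (adjusted p of 0.13 for SET2 and 0.11 for DOT1, edgeR quasi-likelihood). Neither passed with only 1 of the 3 nearly alike pseudo-wild-type libraries in the fit (SET2 log2 -1.34, adjusted p = 0.19, and DOT1 log2 -0.89, adjusted p = 0.15, edgeR quasi-likelihood).

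The lysine 36 demethylases did not pass the test there. In symmetric K36Q, JHD1 had 67.8 and 39.8 CPM, against a mean of 43.9 CPM in pseudo-wild-type (log2 0.06 ± 0.26). RPH1 had 117 and 78.1 CPM in symmetric K36Q, against a mean of 107 CPM in pseudo-wild-type (log2 -0.24 ± 0.17).

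In asymmetric K36R SET2 had 54.4 CPM with the mutation in H3X and 57.3 CPM with it in H3Y. Both lie inside the pseudo-wild-type range of 44.6 to 103 CPM, but its low end is the shallowest library of the assay. Both lie below every other pseudo-wild-type library, and the one in the same batch, batch 3, had 94.6 CPM. The log2 fold change was -1.09 ± 0.47 with an adjusted p of 0.31 in edgeR's quasi-likelihood test, and 0% of all genes passed there. Asymmetric K36Q had 40.5 to 78.99 CPM and a log2 fold change of -0.50 ± 0.35. K36R against K36Q, both asymmetric, called none of the 10 genes in edgeR or DESeq2, beside 0% of all genes, with 0 at an unadjusted p under 0.05 (SET2 log2 -0.58 ± 0.45).

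In the 3′-end assay of the same K36Q mutant, SET2 did not pass the test. SET2 had 49.7, 35.9 and 55.9 CPM in symmetric K36Q, against 26.9 to 55.0 CPM in the 6 pseudo-wild-type libraries of that batch, with a log2 fold change of 0.14 ± 0.23 and overlapping groups. DOT1 differed by 0.07 on the log2 scale. In that comparison 0% of all genes passed. A fit of both assays together, added after the data had been seen, put the SET2 effect of symmetric K36Q at -1.61 ± 0.44 in full-length minus 3′-end (adjusted p = 0.0327, edgeR quasi-likelihood), while for DOT1 the difference of -0.86 ± 0.29 did not pass (adjusted p = 0.0506). In that fit 7.64% of 5011 shared genes differed between assays for K36Q. The fit counts the 3 nearly alike pseudo-wild-type libraries as separate samples. With 1 of them kept, SET2 did not pass (log2 -1.40, adjusted p = 0.17, edgeR quasi-likelihood), nor did any of the 5011 genes for K36Q.

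**Figure D2:**
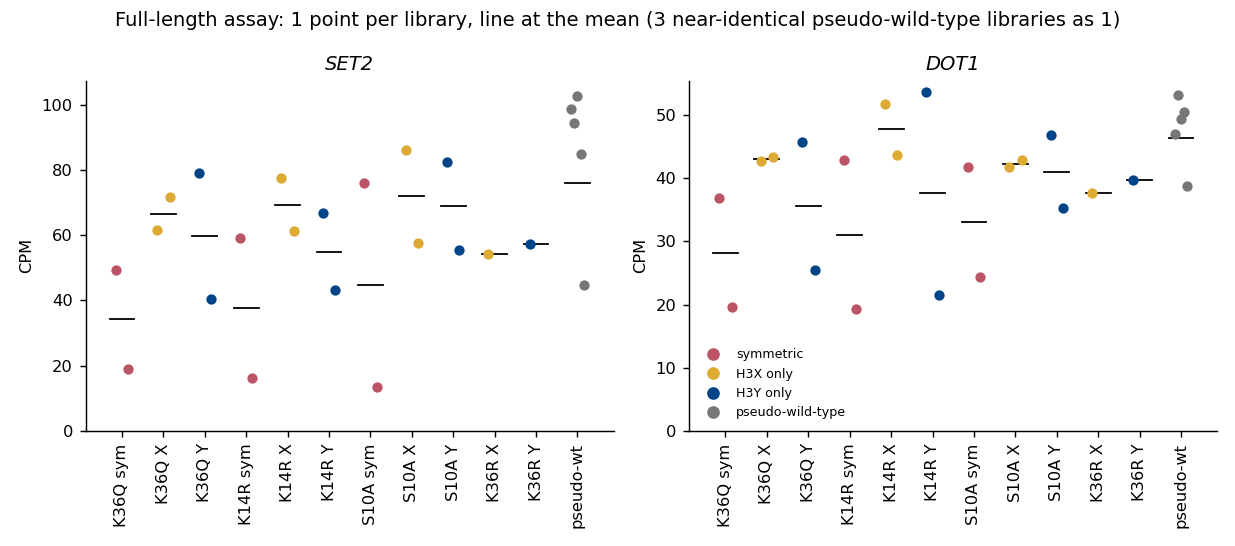
SET2 and DOT1 in full-length libraries, in CPM, 1 point per library, for symmetric (sym), H3X-only (X) and H3Y-only (Y) strains of K36Q, K14R, S10A and K36R, with pseudo-wild-type at the right. Lines are means with the 3 near-identical pseudo-wild-type libraries as 1. In the symmetric strains of K36Q, K14R and S10A 1 library lies at 13.5 to 19.05 CPM for SET2 and the other at 49.4 to 76.1 CPM.

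The symmetric K14R and S10A strains also had 1 high and 1 low library in the full-length assay. SET2 had 59.2 and 16.1 CPM in symmetric K14R (log2 -1.19 ± 0.47 against pseudo-wild-type, adjusted p = 0.0637, edgeR quasi-likelihood). In symmetric S10A it had 76.1 and 13.5 CPM (log2 -1.17 ± 0.46, adjusted p = 0.0993, edgeR quasi-likelihood). DESeq2 called SET2 in both, beside 30.1% of all genes for K14R and 17.7% for S10A, and it called SET2, DOT1 and SWD1 in symmetric K36Q, beside 14.9% of all genes. Over all 13 symmetric mutants, 2 of 130 tests of these genes passed, or 1.54%, beside 2.27% of all tests in the assay.

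Trends over all genes moved with these low libraries. In each library, log2 CPM was regressed on the A content and length of the coding regions, relative to the batch. The slope was -1.07 log2 per 10 percentage points of A in the low K36Q library, -1.84 in the low K14R library and -1.44 in the low S10A library, against -0.19 to 0.34 in the 5 pseudo-wild-type libraries. In all, 5 of the 98 libraries had slopes below -1, among them H3X-only K18Q replicate 1 and H3X-only K37Q replicate 1. With such slopes as library covariates, SET2 in symmetric K36Q had a log2 fold change of -0.63 (adjusted p = 0.0415, edgeR quasi-likelihood), DOT1 had -0.34 (adjusted p = 0.28), and SPP1, which did not pass without them, was called higher at 0.56 (adjusted p = 0.0226), beside 3.18% of all genes called higher.

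The 10 genes differ in base content. SDC1 is the most A-rich, with 39.96% A in its coding bases, above 97.6% of 6007 genes, whose median is 32.6%. SET2 follows with 37.7% of 2202 coding bases, above 93.0% of genes. BRE2 and SPP1 have 35.9%, SET1 and DOT1 35.7%, JHD1 and RPH1 33.7%, JHD2 33.2% and SWD1 30.8%. The most A-rich 100 coding bases are printed for SET2, the gene with the highest correlation with the library slope, and for SWD1, the least A-rich of the 10, a pair chosen after the values were seen, with A in capitals (R64, coding strand; minus strand for SET2 at chrX:102401-102500 and plus strand for SWD1 at chrI:155635-155734). They hold 55 A bases in SET2 and 44 in SWD1.
SET2: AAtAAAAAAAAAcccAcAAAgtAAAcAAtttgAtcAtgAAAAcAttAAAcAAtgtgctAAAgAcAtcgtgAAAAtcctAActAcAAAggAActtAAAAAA
SWD1: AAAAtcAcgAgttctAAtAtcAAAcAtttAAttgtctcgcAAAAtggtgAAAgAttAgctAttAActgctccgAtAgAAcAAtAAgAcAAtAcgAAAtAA

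In the 3′-end assay the genes that rose did so in batch 11, SET2 by the most. In symmetric K14R, SET2, DOT1, BRE2 and RPH1 were higher. That is 4 of 10 genes, beside 20.4% of all genes called higher in this comparison. SET2 had 33.1, 39.6 and 40.8 CPM in symmetric K14R, against 20.4, 21.3, 25.7, 19.1, 17.4 and 12.7 CPM in pseudo-wild-type replicates 14 to 19. Every K14R library lies above every pseudo-wild-type library, and the log2 fold change was 0.95 ± 0.20 (adjusted p = 0.00107, edgeR quasi-likelihood over 4961 genes). No share of all genes with groups separated in this way is given beside it, here or for the genes below.

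RPH1, the lysine 36 demethylase and repressor, had 19.2, 15.8 and 21.9 CPM in symmetric K14R, against 9.40 to 15.6 CPM in pseudo-wild-type, with no overlap. Its log2 fold change was 0.66 ± 0.16 (adjusted p = 0.00232, edgeR quasi-likelihood). BRE2 averaged 51.2 ± 5.86 CPM in symmetric K14R and 33.2 ± 6.49 CPM in pseudo-wild-type (SD, n = 3 and 6), a log2 fold change of 0.60. DOT1 averaged 39.8 ± 7.06 CPM in symmetric K14R and 26.9 ± 5.00 CPM in pseudo-wild-type, a log2 fold change of 0.57. The groups of both genes do not overlap, and DOT1 did not pass without symmetric K14R replicate 5 (log2 0.42). SET1, the catalytic subunit that Bre2 serves, had a log2 fold change of 0.19 and did not pass.

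**Figure D3:**
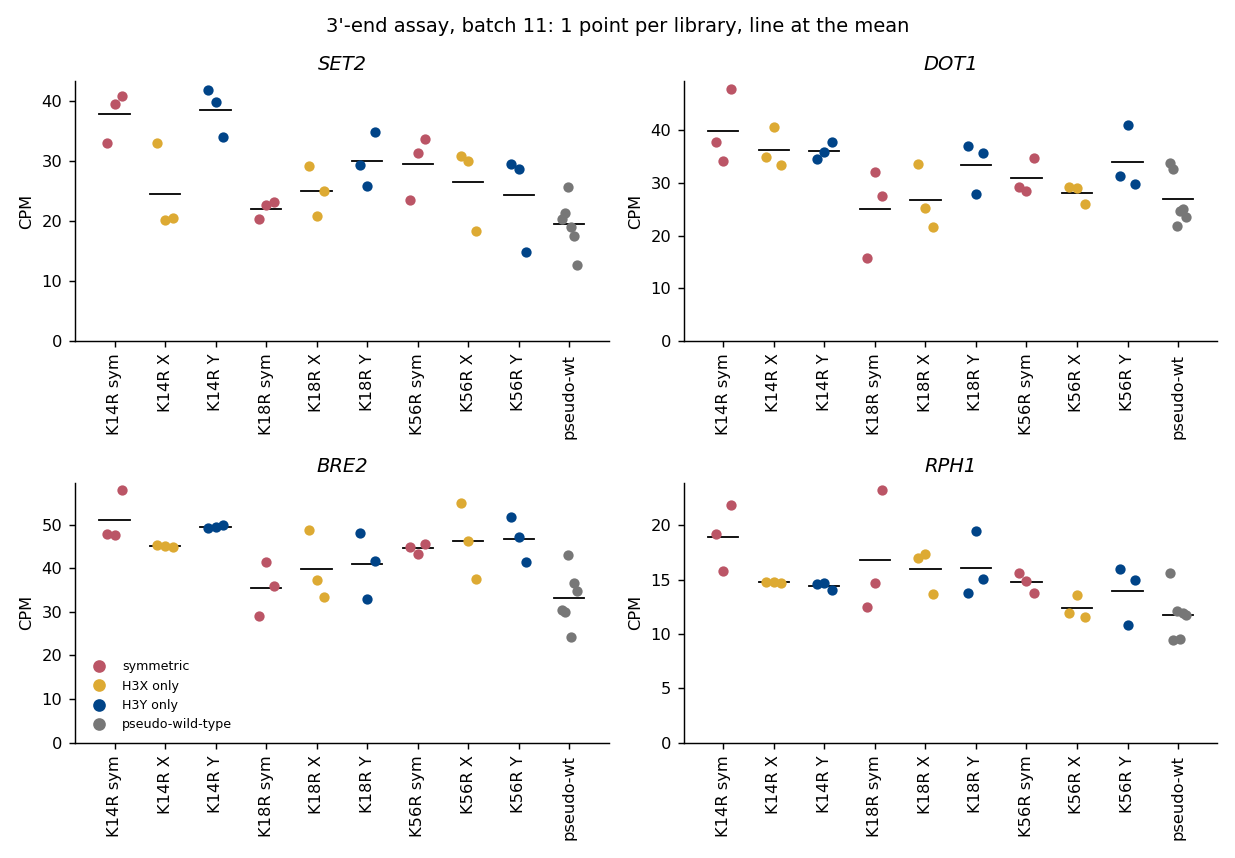
CPM of SET2, DOT1, BRE2 and RPH1 in the 33 libraries of 3′-end batch 11, 1 point per library with a line at the mean, for symmetric (sym), H3X-only (X) and H3Y-only (Y) strains and pseudo-wild-type at the right. The 3 symmetric K14R libraries lie above all 6 pseudo-wild-type libraries in each panel.

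Symmetric K56R called 2 of the 10 genes higher, beside 13.4% of all genes. SET2 had 23.6, 31.3 and 33.7 CPM in symmetric K56R, against 12.7 to 25.7 CPM in pseudo-wild-type, so its groups overlap by 1 library, and the log2 fold change was 0.59 ± 0.21 (adjusted p = 0.0413, edgeR quasi-likelihood). BRE2 averaged 44.6 ± 1.11 CPM in symmetric K56R and 33.2 ± 6.49 CPM in pseudo-wild-type, with no overlap (log2 0.41, adjusted p = 0.0480, edgeR quasi-likelihood). BRE2 passed in 9 of 33 fits that left out 1 library of the batch and SET2 in 22 of 33. SET2 did not pass without symmetric K56R replicate 4 or 5 or pseudo-wild-type replicate 14, 17, 18 or 19 (log2 0.46 to 0.60), nor without 1 of 5 libraries of other mutants. BRE2 did not pass without any 1 of the 3 symmetric K56R libraries (log2 0.37 to 0.41). Symmetric K56R replicates 3 and 4 were the most alike pair of the assay (chi-square per degree of freedom 1.59), above sampling noise. With them summed to 1 library, neither gene passed (adjusted p of 0.0690 for SET2 and 0.10 for BRE2, edgeR quasi-likelihood). BRE2 passed in 0 of 5 alternative settings (DESeq2 adjusted p = 0.0640), and SET2 in 2 of 5. Symmetric R2K, K36Q, K37Q and K18R called none of the 10 genes, where 0%, 0%, 0.1% and 1.81% of all genes passed. There, edgeR gave 1 unadjusted p under 0.05 among these genes, for R2K, and DESeq2 called none.

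**Figure D4:**
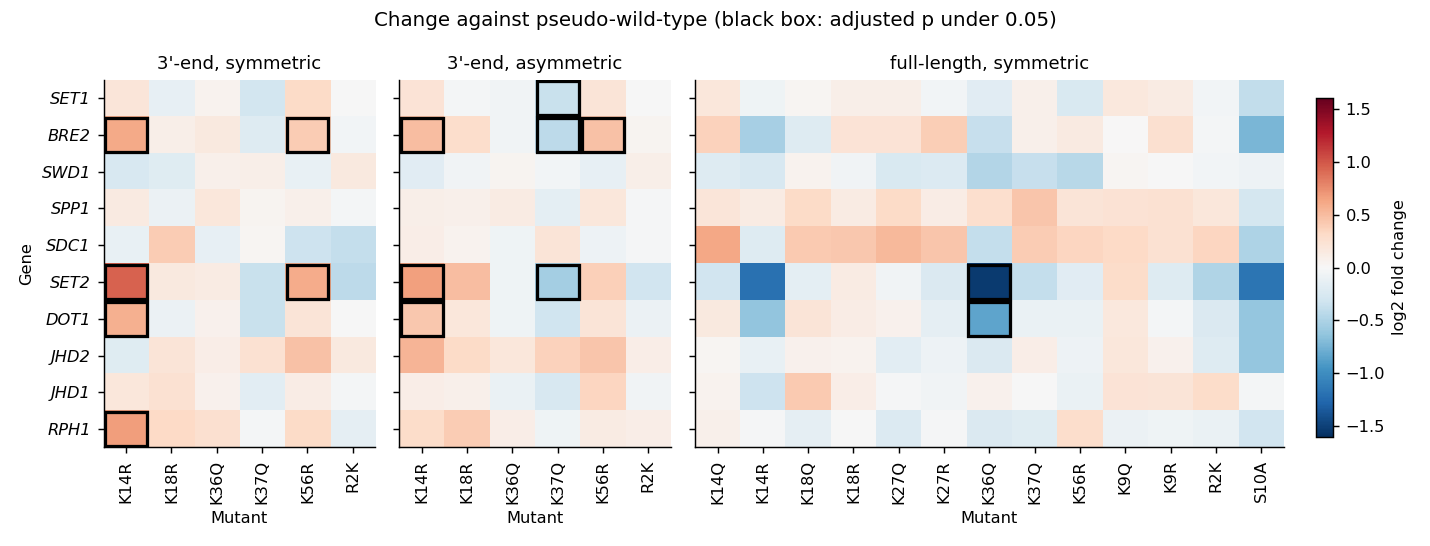
Log2 fold change against pseudo-wild-type for the 10 genes (rows) in the 6 symmetric and 6 asymmetric 3′-end comparisons and the 13 symmetric full-length comparisons (columns), red for higher and blue for lower in the mutant. Black boxes mark adjusted p under 0.05, 6, 7 and 2 of them from left to right.

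The asymmetric strains, taken as the mean of H3X-only and H3Y-only, gave 4 calls in the K14R and K56R mutants. In K14R, SET2 had a log2 fold change of 0.66 ± 0.17, BRE2 0.49 ± 0.12 and DOT1 0.43 ± 0.14 (adjusted p of 0.00762, 0.00570 and 0.0232, edgeR quasi-likelihood), beside 17.4% of all genes called higher. SET2 was uneven there, with 33.1, 20.1 and 20.5 CPM in H3X-only K14R and 41.9, 39.8 and 33.9 CPM in H3Y-only K14R, so only the H3Y-only strain has all 3 libraries above all pseudo-wild-type libraries. DOT1 did not pass without H3X-only K14R replicate 4 or pseudo-wild-type replicate 18 or 19 (log2 0.39 to 0.42). In K56R, BRE2 alone passed at 0.47 ± 0.12 (adjusted p = 0.00847, edgeR quasi-likelihood), beside 12.7% of all genes called higher.

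In asymmetric K37Q of batch 10 the calls were in the other direction. SET2 averaged 28.4 ± 8.25 CPM in asymmetric K37Q and 43.0 ± 11.0 CPM in pseudo-wild-type (SD, n = 6 each), a log2 fold change of -0.55 ± 0.20 (adjusted p = 0.0284, edgeR quasi-likelihood). BRE2 had -0.42 ± 0.13 and SET1 -0.36 ± 0.14, adjusted p 0.00932 and 0.0400 in edgeR's quasi-likelihood test. That makes 3 of 10 genes lower, beside 21.6% of all genes called lower. All 3 groups overlap with pseudo-wild-type. Without H3X-only K37Q replicate 3, which had the lowest BRE2 value of the asymmetric K37Q libraries, 22.4 CPM, SET1 (log2 -0.34) and SET2 (log2 -0.50) did not pass. SET1 also failed without H3X-only replicate 5, H3Y-only replicate 3 or pseudo-wild-type replicate 8, 11, 12 or 13, and SET2 without H3X-only replicate 5, H3Y-only replicate 4 or pseudo-wild-type replicate 8, 11 or 13. Over all libraries left out in turn SET1 ran from -0.52 to -0.26 and SET2 from -0.80 to -0.45, and BRE2 passed each time. Asymmetric R2K, K36Q and K18R called none, beside 0% of all genes in each, with 0, 0 and 3 of the 10 genes at an unadjusted p under 0.05 and 0 by DESeq2.

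Over all 6 mutants, 6 of 60 symmetric tests passed, or 10%, beside 10.3% of all tests in those comparisons. For the asymmetric strains it was 7 of 60, or 11.7%, beside 15.6%. These shares are near or below the background.

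None of 60 tests of symmetric against asymmetric strains passed in edgeR's quasi-likelihood test or in DESeq2, beside 0.369% of all tests, with 3 at an unadjusted p under 0.05. H3X-only against H3Y-only strains gave 0 of 60 in both tools as well, beside 0.556% of all tests, with 4 at an unadjusted p under 0.05. The largest of those was SET2 in K14R, with a log2 difference of -0.64 for H3X minus H3Y (adjusted p = 0.39, edgeR quasi-likelihood). In the full-length assay, symmetric against asymmetric gave 0 of 130 in edgeR, with 10 at an unadjusted p under 0.05, beside 0.814% of all tests. DESeq2 gave 1 (SWD1 in K36Q, log2 -0.62), where it called 3.28% of all genes. In H3X-only K36Q replicate 2, SWD1 had 115 CPM, and the 24 genes around it had a median log2 ratio of 0.88. That median was -0.17 to 0.00 in the other full-length K36Q libraries. The part of this regional shift in the SWD1 difference was not tested. The 18 asymmetric full-length comparisons gave 0 of 180 in both tools, beside 0.0471% of all tests, with 8 at an unadjusted p under 0.05.

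The 3′-end calls moved with the same library trend. In batch 11 the slope on coding A was 0.28 to 0.42 log2 per 10 percentage points in symmetric K14R libraries and -0.59 to 0.13 in pseudo-wild-type libraries. In batch 10 it was -0.75 to 0.02 in H3X-only K37Q libraries and -0.17 to 0.35 in pseudo-wild-type libraries. With library slopes on coding length and A content as covariates, 0 of the 6 symmetric and 0 of the 7 asymmetric calls passed, and SET2 in symmetric K14R had a log2 fold change of 0.10 (adjusted p = 0.91, edgeR quasi-likelihood). RPH1 in symmetric K14R had a log2 fold change of 0.63 there, against 0.66 without the slopes, and did not pass (adjusted p = 0.23). Over all genes that setting left 0.847% called in symmetric K14R and 14.7% in symmetric K56R. The slopes of symmetric K14R and pseudo-wild-type libraries do not overlap, so there a library trend and an effect of the mutant cannot be told apart.

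The level of pseudo-wild-type itself differed between the batches. SET2 averaged 43.0 ± 11.0 CPM in the 6 pseudo-wild-type libraries of batch 10 and 19.4 ± 4.29 CPM in the 6 of batch 11, the lowest of the 20 strain means. BRE2, JHD1 and RPH1 had their lowest strain mean in the same place. Batches 10 and 11 hold different mutants, so batch and mutant cannot be told apart in levels set across them, and all 3′-end tests were made within a batch.

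Of the 6 mutants measured in both assays, K14R had the most genes that differed between them. The symmetric effect in full-length minus 3′-end was -2.08 ± 0.48 for SET2 (adjusted p = 0.000419), -1.12 ± 0.31 for DOT1, -1.07 ± 0.31 for BRE2 and -0.61 ± 0.23 for RPH1 (adjusted p 0.00245, 0.00348 and 0.0217, all edgeR quasi-likelihood). These 4 genes were called higher in the 3′-end assay, while their full-length log2 fold changes were -1.19, -0.63, -0.53 and -0.02. The full-length strain has 2 libraries far apart, with SET2 at 59.2 and 16.1 CPM, and the lower one has the slope of -1.84. In that lower library the genes around BRE2 (12 on each side) had a median log2 ratio of -0.66. The median was -0.59 around RPH1 and 0.29 around SET2. The part of these regional shifts in the differences was not tested. No library was left out in turn in the fit of both assays, so how far the differences rest on that library was not tested. In that fit 55.3% of all shared genes differed between assays for K14R. With 1 of the 3 nearly alike pseudo-wild-type libraries kept, SET2 (log2 -1.78, adjusted p = 0.0143), DOT1 (-1.15, adjusted p = 0.0155) and BRE2 (-1.07, adjusted p = 0.0214) passed and RPH1 (-0.48, adjusted p = 0.13) did not, beside 35.6% of all shared genes (edgeR quasi-likelihood). In the fit with all 3, for R2K, K37Q, K18R and K56R, none of the 10 genes differed, where 0%, 0%, 0% and 0.0998% of all genes did.

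Across libraries the levels of SET1, SET2, DOT1 and BRE2 were correlated. Their 6 pairs had Pearson r of 0.57 to 0.70 over 66 3′-end libraries and 0.59 to 0.80 over 98 full-length libraries, on log2 CPM less the batch mean, against medians of 0.09 and 0.30 over all 45 pairs. SDC1, the smallest gene of the set at 528 coding bases, had negative correlations with most of the others in the 3′-end assay, with a median r of -0.29, but a median of 0.25 in the full-length assay. The libraries share sequencing batches and the trends with coding A content and length. SET2 had the highest r with the slope on A content, 0.87 (3′-end) and 0.91 (full-length). BRE2 followed with 0.82 and 0.85, DOT1 with 0.69 and 0.81 and SET1 with 0.65 and 0.61. SPP1 had 0.51 and 0.47, RPH1 0.25 and 0.30, JHD1 0.25 and 0.41, JHD2 -0.01 and 0.50 and SWD1 -0.19 and 0.13. SDC1, the most A-rich of the 10, had -0.16 in the 3′-end assay and 0.59 in the full-length assay. Thus r did not follow the order of A content. With the slope on coding length, SET1 had r of 0.77 (3′-end) and 0.72 (full-length). SET2 had 0.70 and 0.53, BRE2 0.79 and 0.50 and DOT1 0.65 and 0.59 with it. SPP1 had 0.61 and 0.17, JHD2 0.18 and 0.66 and RPH1 0.07 and 0.54. JHD1 had 0.11 and 0.09, SWD1 0.02 and 0.08 and SDC1 -0.60 and -0.28.

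The 5 full-length libraries with slopes below -1 carry part of the r values with the slope on A content. Without them r was 0.84 for SET2, 0.72 for DOT1, 0.70 for BRE2 and 0.62 for SET1. It was 0.36 for JHD2, 0.31 for RPH1, 0.19 for SPP1 and 0.11 for SDC1, and it turned negative for JHD1 (-0.08) and SWD1 (-0.24). The part of this trend in the calls was not tested. The covariate fit cannot tell it apart from an effect of the mutant, since the slopes come from the same libraries and can differ by group.

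**Figure D5:**
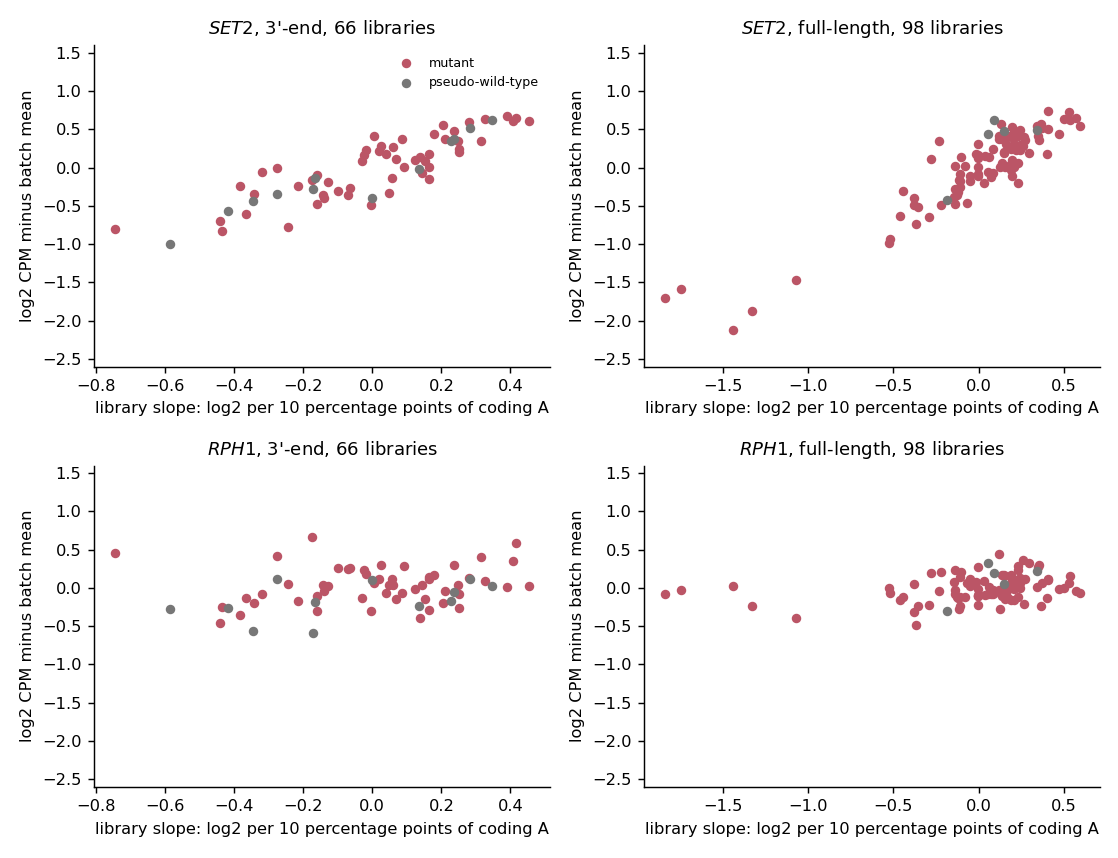
SET2 (top) and RPH1 (bottom) in each library, as log2 CPM minus the batch mean (vertical), against the library's slope of log2 CPM on coding A content, in log2 per 10 percentage points (horizontal), for 66 3′-end libraries (left) and 98 full-length libraries (right), mutants in red and pseudo-wild-type in grey. SET2 has r of 0.87 and 0.91 with the slope and RPH1 0.25 and 0.30.

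The genes whose 3′-end pattern was most like these were picked by the highest r of batch-centred log2 CPM over 66 libraries, among 4605 genes. For SET2 they were TFG1, a subunit of the transcription factor TFIIF (r = 0.91), and SMC3, a cohesin subunit (r = 0.90), with 37.0% and 38.3% A in their coding regions. For SET1 they were MMS22 (0.85) and DYN1, the dynein heavy chain (0.83). For DOT1 they were TCB1 (0.75) and SAC3 (0.74), and for RPH1 FOB1 (0.55) and SSK2 (0.54).

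Of 4 motifs searched for in the promoters, none was in all 10 genes. In windows of 300 bases, from 250 bases before the start codon to 50 from its first base, on both strands, AGGGG (the stress response element) was found in SET2, SWD1 and RPH1, and in 21.6% of 6026 promoters. TTACCCG (Reb1) was found in SPP1 and in 7.05% of promoters, the motif of Abf1 in SET2 and in 14.3%, and TTAGGGAT (the element bound by Rph1 and Gis1) in none of the 10 and in 0.564%. No matches overlap. The SET2 window is printed because SET2 has the widest range of the 10 among the 3′-end strains and holds matches to both the stress element and the Abf1 motif (R64, minus strand, chrX:104379-104678), with both matches in capitals.
SET2 promoter: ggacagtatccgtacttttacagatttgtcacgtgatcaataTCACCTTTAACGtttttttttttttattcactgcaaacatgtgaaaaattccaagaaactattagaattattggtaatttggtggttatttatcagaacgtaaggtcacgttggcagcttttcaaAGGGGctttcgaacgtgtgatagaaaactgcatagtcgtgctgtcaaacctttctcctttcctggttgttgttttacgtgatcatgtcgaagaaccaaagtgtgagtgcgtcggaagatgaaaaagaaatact

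Other genes of H3 methylation were called in the same 3′-end comparisons. A list of 34 held further COMPASS subunits, H2B ubiquitination, the Paf1 complex, reader complexes, relatives of the enzymes and S-adenosylmethionine synthetases, and 33 were tested in the 3′-end assay, all but HST1. In symmetric K14R, 14 were higher and 1 lower, with a median log2 fold change of 0.28 beside 0.01 over all genes. They included RTF1 and CTR9 of the Paf1 complex, which promotes H2B ubiquitination (1.41 and 1.28), SET3, the PHD-finger subunit of a histone deacetylase complex that binds methylated lysine 4 (1.55), and BRE1, the H2B ubiquitin ligase (0.97). SAM2, a synthetase of the methyl donor and a close paralog of SAM1 with which it may share reads, was the one lower at -0.35. In asymmetric K14R, 12 were higher and 1 lower, with SET3 at 1.55 and SAM2 at -0.25. In asymmetric K37Q, 2 were higher and 16 lower, among them SET3 (-1.26), CTR9 (-1.12), LEO1 (-1.02) and BRE1 (-0.86), while SWD3, a core COMPASS subunit, was higher (0.84). In symmetric K56R, 8 were higher and 2 lower, with SAM1 at -0.46 and ISW1 at -0.39. In asymmetric K56R, 7 were higher and 1 lower, and SNT1, the scaffold of the Set3 complex, was higher at 0.93. SNT1 also differed by 0.93 in H3X-only minus H3Y-only K56R. Over the 6 mutants 0.556% of all H3X-only against H3Y-only tests passed, a pooled share that may differ from that of K56R alone. In the main direction of each, the share of all genes called was 20.4% (symmetric K14R), 17.4% (asymmetric K14R), 21.6% (asymmetric K37Q), 13.4% (symmetric K56R) and 12.7% (asymmetric K56R). For calls in the other direction, the shares in either direction over all mutants were 10.3% of symmetric and 15.6% of asymmetric tests. These pooled shares are not those of each comparison in that direction, so such calls cannot be weighed against all genes here. With library slopes as covariates, 0 of the 33 passed in K14R and in asymmetric K37Q. All genes then had 0.847% (symmetric K14R), 0.181% (asymmetric K14R) and 0.0201% (asymmetric K37Q) called. In that setting 2 passed in symmetric K56R (ISW1 and SET4), beside 14.7% of all genes, and 1 in asymmetric K56R (SNT1), beside 7.36%.

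In the full-length assay few of the 34 were called. In symmetric K36Q, 2 were lower and 0 higher, beside 2.98% of all genes lower and 4.39% higher: UBP8 (-1.26) and UBP10 (-0.86), both H2B deubiquitinases. In symmetric K14R, 3 were higher (EAF3, UME1 and SAM1), beside 14.6% of all genes, and UBP8 was lower at -1.37, beside 5.69%. HOS2, the deacetylase of the Set3 complex, was higher in symmetric K56R at 0.83, beside 1.49% of all genes. In symmetric against asymmetric K14R, SWD2, a COMPASS subunit, was higher at 0.64 and UBP8 lower at -1.31, beside 8% of all genes higher and 1.4% lower. With library slopes 0 of the K36Q and K14R calls against pseudo-wild-type passed. SAM1 was then called lower in symmetric K36Q, where 333 of 6376 genes were called in either direction. With 1 of the 3 nearly alike pseudo-wild-type libraries kept, 0 of the 34 passed in any of the 13 symmetric strains, beside 1.52% of all genes in K36Q and 0.125% in K14R.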

How the data were processed

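The deposited values are raw counts per gene made by the authors, 1 file per library. Per the submitters' processing notes, reads were aligned with TopHat2 2.0.12 and Bowtie2 to sacCer3, and per the file headers they were counted with featureCounts 1.4.6-p2 at a minimum mapping quality of 30. Full-length pairs were counted over genes with marked duplicates ignored. The 3′-end reads were counted over transcript features with duplicates kept, from a path that names bwa. Names came from the R64 reference by systematic name: of 6008 full-length features matched, 6000 had its coordinates.

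The quasi-likelihood test of edgeR 4.0.16 (R 4.3.3) was run after filterByExpr and TMM scaling, and p-values were adjusted over all genes by Benjamini-Hochberg, with a threshold of 0.05. Each 3′-end batch was fitted alone with 23 residual degrees of freedom, and all 98 full-length libraries together with batch as a term and 35. SE is the log2 fold change over the square root of F. DESeq2 1.42.0 was an alternative. The procedure was tested on simulated data. All 10 genes are named. Correlations added 0.5 to CPM, and pattern likeness used genes above 5 CPM with a standard symbol. Slopes used genes above 20 CPM.

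The members and lists were chosen with earlier results of these data known. Same-number replicates were checked for pairing: in 2 of 18 strain pairs all 3 correlations exceeded 0.1 (K36Q symmetric with H3X-only, 0.10 to 0.35, and K56R H3X-only with H3Y-only, 0.18 to 0.51). The labels name no pairing.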

Additional observations from a re-analysis of the deposited data

Results flagged for a closer look

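SET1 in pseudo-wild-type replicate 15 of 3′-end batch 11 had 82.1 CPM, while the other 5 libraries of that group had 51.5 to 57.6 CPM. Its gap to the nearest of them was unusual for a group of 6. Of 20 such groups tested it was the only one to stand out, and chance gives about 1 in 20.

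Effects of symmetric mutants differed between the full-length and 3′-end assays in a fit of both together. The log2 difference, full-length minus 3′-end, was -1.61 for SET2 in K36Q. In K14R it was -2.08 for SET2, -1.12 for DOT1, -1.07 for BRE2 and -0.61 for RPH1. The fit counts 3 nearly alike pseudo-wild-type libraries as separate samples, and with 1 of them kept SET2 in K36Q and RPH1 in K14R did not pass, while SET2, DOT1 and BRE2 in K14R did. The symmetric K36Q and K14R strains each had 1 full-length library with a steep slope, -1.07 and -1.84 log2 per 10 percentage points of coding A. No library was left out in turn in that fit. In the K14R library with the steep slope, the genes around BRE2 and RPH1 had median log2 ratios of -0.66 and -0.59. Those around SET2 had 0.29. The assays also differ in library method, batch and counting, and the part of these in the differences was not tested.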

How the results depend on the processing

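With library slopes on coding length and A content, 0 members passed in the symmetric and 0 in the asymmetric 3′-end comparisons with pseudo-wild-type, and 4 called values changed sign: asymmetric K37Q SET1 to 0.14, SET2 to 0.24 and BRE2 to 0.00518, and asymmetric K14R SET2 to -0.00484. The cause was not tested. With symmetric K56R replicates 3 and 4 summed, SET2 and BRE2 in symmetric K56R did not pass. In full-length symmetric strains DESeq2 called 5 members, while 0 passed without a batch term and 0 with 1 of the 3 near-identical pseudo-wild-type libraries kept. DESeq2 called 1 member in full-length symmetric against asymmetric. In batch 8 alone, where 1 residual degree of freedom remains, 2 passed in symmetric strains (SET2 and SDC1 in S10A, where 30.7% of all genes passed), against 0 in the fit of all batches. That S10A arm is 1 library, replicate 2, with a slope of -1.44. In the fit of both assays 3 members passed with 1 of the 3 near-identical libraries kept, against 5, a setting chosen after seeing the data.

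Leaving out each library, 3′-end symmetric calls ranged from 3 (without symmetric K14R replicate 5) to 9, asymmetric ones from 5 to 9, and symmetric against asymmetric from 0 to 1 (SDC1, without symmetric K18R replicate 4). H3X against H3Y stayed at 0. Full-length symmetric calls ranged from 0 to 7 and symmetric against asymmetric from 0 to 5. Both highest counts came without symmetric K14R replicate 1, which leaves the library with a slope of -1.84, and SWD1 in K36Q passed without H3X-only K36Q replicate 1. That leaves H3X-only K36Q replicate 2, where the 24 genes around SWD1 had a median log2 ratio of 0.88. The full-length leave-outs covered 11 libraries, with pseudo-wild-type replicates 1, 4 and 5 but not 2 and 3. Each lone library is assumed to vary like other groups.

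With the replicate number as a block, alone or with slopes, 0 members passed in symmetric against asymmetric and in H3X against H3Y, as without it. Where genes had few reads, as JHD2 in the 3′-end assay, changes near the SE were not detectable.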
